A study of Mus musculus with 8 samples.

Results

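The serine and folate one-carbon pathway was described here through 10 enzymes in dermal fibroblasts of young and old mice: Aldh1l2, Shmt2, Mthfd2 and Mthfd1l of mitochondria, Aldh1l1, Shmt1 and Mthfd1 of the cytosol, and Phgdh, Psat1 and Psph of serine synthesis. The members were selected by gene symbol, and the value of a gene is that of its probe set of highest mean among those annotated to that symbol alone. Such a probe set existed for 9 of the 10 enzymes, of 17097 genes with one in the whole series, and Mthfd2 was the enzyme without. The group was built around Aldh1l2, which was chosen from its large difference between the ages in these same arrays, so its difference is given as a description with no test. The other enzymes were taken for their place in the pathway, but also with earlier results of these arrays known. Their tests are therefore not those of an independently chosen set.

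Skin of 4 young mice aged 2 months and 4 old mice aged 18 months was compared, with 1 array per mouse, and 1 mouse of each age was killed on each collection day. The skin was freed of subdermis and digested, and a sort kept cells positive for Pdgfra and CD34 and removed those carrying CD31, CD24, CD117, CD45 or EpCam. From each mouse 6 ng of RNA was amplified for 18 cycles and 8 µg of cDNA was labelled for an Affymetrix mouse array. Strain, sex and genotype are not given in the sources used here, and no treatment is named for either age.

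Serine supplies most of the one-carbon units that cells carry on folate. Phgdh, Psat1 and Psph make serine from a glycolytic intermediate, and a serine hydroxymethyltransferase, Shmt2 in mitochondria or Shmt1 in the cytosol, moves a carbon from serine to tetrahydrofolate. Inside mitochondria Mthfd2 oxidises that carbon, and it leaves either as formate, released by Mthfd1l, or as carbon dioxide through Aldh1l2, which makes NADPH on the way. In the cytosol Mthfd1 takes formate back onto folate for purine and thymidylate synthesis, and Aldh1l1 is the cytosolic counterpart of Aldh1l2. In many cell types the transcription factor Atf4 drives several of these genes when amino acids run short.

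Values are log2 levels, so a difference of 1 is a doubling. Levels of different probe sets are not on a common scale and were not compared between genes. As a floor, 82 olfactory, vomeronasal and taste receptor genes, not expected in skin, had a median log2 level of 3.86, and 95% of them lay below 5.10, so a gene with a mean below that is called at the floor. Array medians ran from 5.19 to 5.34. A log2 level in these sorted samples does not separate fewer cells with a transcript from less transcript per cell.

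The promoters of Phgdh and Mthfd1 are shown because these were the members that passed the test between the ages, in opposite directions. The windows are from RefSeq on GRCm38.p6, which held windows of 9 members, all but Aldh1l2, and each stretch ends at or before the annotated start. Capitals mark a CCAAT box, the letters bound by the factor NF-Y, or its reverse complement ATTGG, 23 bases before the start in Phgdh and 69 before it in Mthfd1.
Phgdh, chr3:98339970-98340069, minus strand: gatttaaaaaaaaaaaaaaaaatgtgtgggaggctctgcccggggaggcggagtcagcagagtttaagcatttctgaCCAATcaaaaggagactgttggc
Mthfd1, chr12:76255132-76255231, plus strand: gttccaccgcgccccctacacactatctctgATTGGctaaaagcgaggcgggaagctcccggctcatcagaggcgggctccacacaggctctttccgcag

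In windows of 300 bases, 250 before to 50 after each start, CCAAT occurred on either strand in 7 of the 10 windows of these 9 members (Psat1 has 2) and in 37.4% of all 32851 windows. That motif was searched after the letters had been seen. TGATGNAA, the core of the element that Atf4 binds with C/EBP factors, occurred in none of these 10 windows and in 3.97% of all. CACGTG, the E-box bound by Myc and related factors, also occurred in none of the 10 and in 7.15% of all. The letters were searched on both strands, the motifs do not overlap each other in sequence, and a match or its lack describes only this window.

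Across all 17097 genes, 17.5% were called between the ages at an adjusted p under 0.05, 9.87% higher and 7.66% lower in old. At an unadjusted p under 0.05 the shares were 16.6% higher and 13.1% lower. Of the 8 enzymes other than Aldh1l2 with a value, 1 rose, 1 fell and 6 did not pass. Their median difference, old minus young, was 0.005 against 0.0075 over all genes.

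Aldh1l2 was far lower in old fibroblasts. Its log2 level was 9.24, 9.38, 9.81 and 9.56 in the young mice and 6.05, 5.84, 5.49 and 5.78 in the old mice. Every young array stood above every old one, with 3.19 between the lowest young and the highest old value. The means were 9.50 ± 0.25 and 5.79 ± 0.23 (SD, n = 4 each), a difference of -3.71 ± 0.14 (SE; 95% interval -4.02 to -3.39) and a level 13.1-fold lower. Among all genes this was decrease number 2 in size. The old level was still above the floor set by the receptor genes, and the value rests on the 1 probe set annotated to Aldh1l2.

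Shmt2, which loads the carbon of serine onto mitochondrial folate, did not pass the test. Its log2 level was 7.51, 7.63, 7.52 and 7.50 in young and 7.08, 7.47, 7.16 and 7.50 in old mice. The young arrays lay close together, old replicates 1 and 3 lay clearly below them, old replicate 2 lay just below them, and only old replicate 4 reached their range. The difference was -0.24 ± 0.10 (SE; 95% interval -0.46 to -0.01, adjusted p = 0.143). The other 2 probe sets of Shmt2 gave -0.14 and -0.19, with adjusted p-values of 0.183 and 0.0873 in the fit over all probe sets. When the arrays were quantile normalized again the gene was called, with a difference of -0.29 and an adjusted p of 0.0482.

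Mthfd1l, which releases formate from mitochondrial folate, lay at the floor in the mean of either age, with values of 5.0, 5.36, 4.89 and 4.80 in young and 4.99, 4.69, 5.19 and 4.89 in old mice. The ages overlapped throughout, with a difference of -0.07 ± 0.14 (SE; 95% interval -0.37 to 0.23, adjusted p = 0.78). A level at the floor limits what can be said of this enzyme in either direction.

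Mthfd2, the mitochondrial dehydrogenase between Shmt2 and Mthfd1l, was not measured alone. The annotation gave 2 probe sets to both Mthfd2 and Gsn, the gene of the actin-severing protein gelsolin, and these were not counted as a value of Mthfd2. The first read 8.21, 8.47, 8.41 and 8.55 in young and 6.47, 7.0, 6.99 and 7.19 in old mice. The second read 8.36, 8.80, 8.62 and 8.75 in young and 6.16, 6.90, 6.42 and 6.95 in old mice. In both, every old array was below every young one. Over all 45141 probe sets, of which 13.1% were called, the first fell by 1.50 ± 0.14 (SE, 2.82-fold, adjusted p = 0.00022) and the second fell by 2.02 ± 0.18 (SE, 4.07-fold, adjusted p = 0.00013).

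Gsn has 5 probe sets of its own, and none of them was called, with 0 at an unadjusted p under 0.05 in limma. Their differences ran from -0.12 to -0.01, and 3 of them had mean log2 levels of 12.1 to 12.3, near the highest value of the table, 13.04. The other 2 lay at the floor, with group means of 4.17 to 4.68. Which transcript the 2 shared probe sets measured was not tested.

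Aldh1l1, the cytosolic counterpart of Aldh1l2, lay at the floor in both ages. It read 4.31, 4.29, 4.55 and 4.35 in young and 4.29, 4.62, 4.29 and 4.45 in old mice. The ages shared 1 range, and the difference was 0.04 ± 0.09 (SE; 95% interval -0.17 to 0.24, adjusted p = 0.836). The age difference of Aldh1l2 less that of Aldh1l1 was -3.75 ± 0.15 (SE), again a description, since Aldh1l2 was chosen for its difference.

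Shmt1, the cytosolic hydroxymethyltransferase, was detected in all mice with no difference past the test. Its log2 level was 7.80, 7.96, 7.82 and 7.91 in young and 7.82, 7.84, 7.69 and 8.03 in old mice. The old range enclosed the young one. The difference was -0.03 ± 0.08 (SE; 95% interval -0.21 to 0.15, adjusted p = 0.864), and its 4 probe sets gave differences of -0.06 to 0.14 with none called and 0 at an unadjusted p under 0.05 in limma.

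Mthfd1, the cytosolic enzyme of 3 activities that joins formate to tetrahydrofolate and carries it on to the forms used for purines and thymidylate, rose in old fibroblasts. Its log2 level was 7.46, 7.79, 7.50 and 7.64 in young and 8.48, 8.28, 8.34 and 8.32 in old mice. The old arrays were close together and all above the young ones, by at least 0.49. The means were 7.60 ± 0.15 and 8.36 ± 0.09 (SD, n = 4 each), a difference of 0.76 ± 0.08 (SE; 95% interval 0.57 to 0.95, 1.69-fold, adjusted p = 0.00033). Its second probe set also passed, with a smaller difference of 0.30 ± 0.07 (SE, 1.23-fold, adjusted p = 0.0227 over all probe sets), and its 95% interval of 0.14 to 0.46 did not meet that of the first.

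Phgdh, which commits a glycolytic intermediate to serine synthesis, fell in old fibroblasts. Its log2 level was 6.52, 6.46, 6.44 and 6.77 in young and 5.94, 5.81, 5.96 and 6.10 in old mice. No old array reached a young one, with 0.34 between the nearest values. The means were 6.55 ± 0.15 and 5.95 ± 0.12 (SD, n = 4 each), a difference of -0.60 ± 0.09 (SE; 95% interval -0.80 to -0.39, 1.51-fold lower, adjusted p = 0.0018). A second probe set read 5.51, 5.48, 5.60 and 5.71 in young and 5.05, 4.97, 4.74 and 4.91 in old mice and fell by 0.66 ± 0.08 (SE, adjusted p = 0.00093 over all probe sets), with its old values at the floor.

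Psat1, the aminotransferase of the next step, did not follow Phgdh downwards. It read 6.10, 6.79, 6.63 and 6.76 in young and 6.95, 6.89, 6.79 and 7.01 in old mice. Young replicate 1 lay well below the other 3 young arrays, and the old minimum equalled the young maximum. The difference was 0.34 ± 0.14 (SE; 95% interval 0.03 to 0.65, adjusted p = 0.132), and without young replicate 1 it was 0.18.

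Psph, the phosphatase that releases free serine, read 6.68, 7.11, 6.92 and 6.69 in young and 7.18, 6.94, 6.91 and 7.14 in old mice. The ages overlapped, with a difference of 0.19 ± 0.11 (SE; 95% interval -0.05 to 0.44, adjusted p = 0.276). Of the 3 enzymes of serine synthesis, then, the first fell and neither of the other two passed the test.

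**Figure D1:**
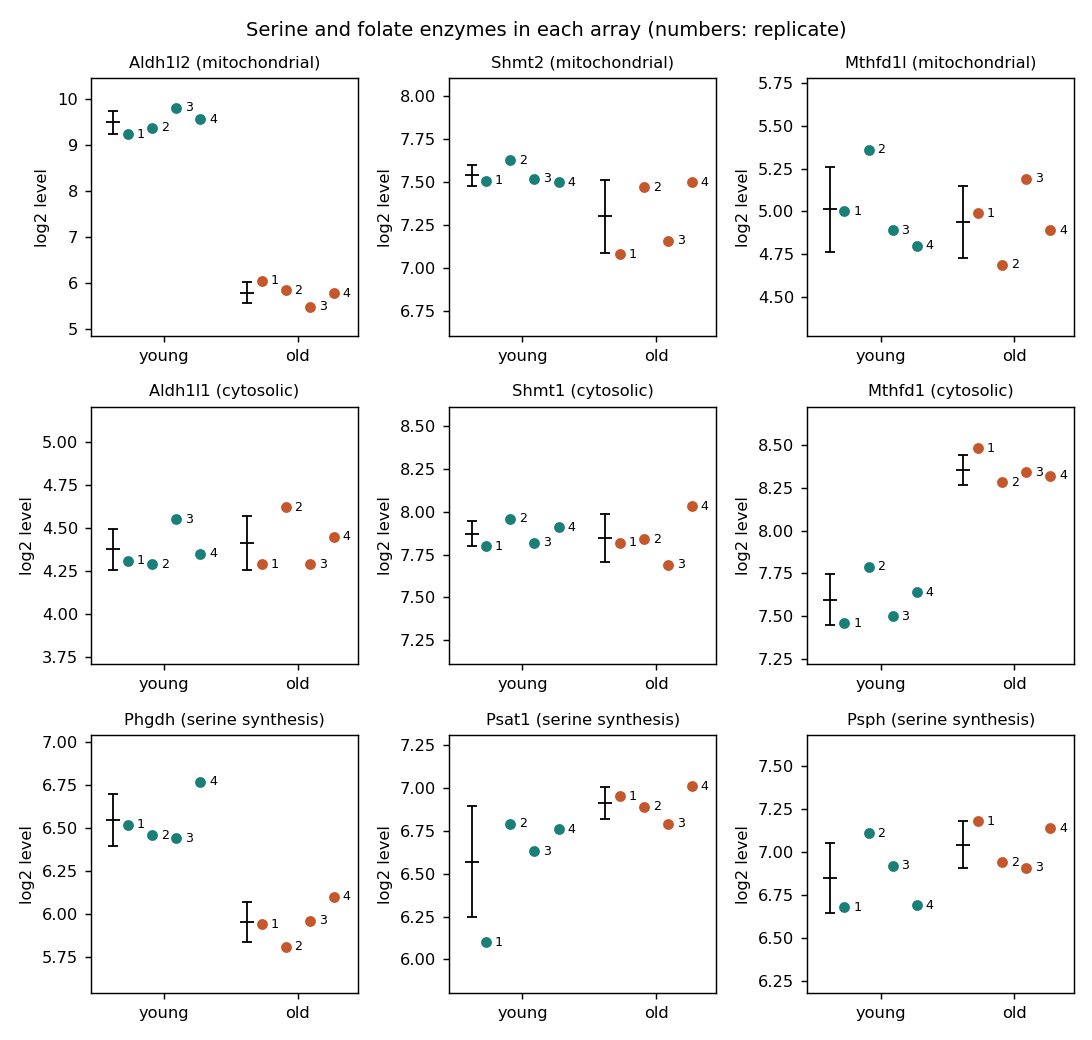
Log2 level (vertical axis) of the 9 measured enzymes in 4 young and 4 old mice, 1 point per array with its replicate number, and beside each group its mean with SD as a bar. The Aldh1l2 panel has a wider scale than the other 8, which share one span. Aldh1l2, chosen for its difference, Mthfd1 and Phgdh have no overlap between the ages. The share of all genes without overlap was not counted.

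The mitochondrial enzyme was also set against its cytosolic partner within each array, which removes any shift the 2 share. The change of Shmt2 relative to Shmt1 was -0.21 ± 0.08 (SE), with a raw exact permutation p of 0.0571 (2-sided, 4 against 4 arrays) and 0.0571 after adjustment over the 2 pairs tested. For Mthfd1l relative to Mthfd1 it was -0.83 ± 0.13 (SE, raw exact p = 0.0286, adjusted 0.0571). The smallest p these 70 assignments allow is 0.0286. Mthfd1l lay at the floor, so this second change was carried by Mthfd1. No such pair was formed for Mthfd2.

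**Figure D2:**
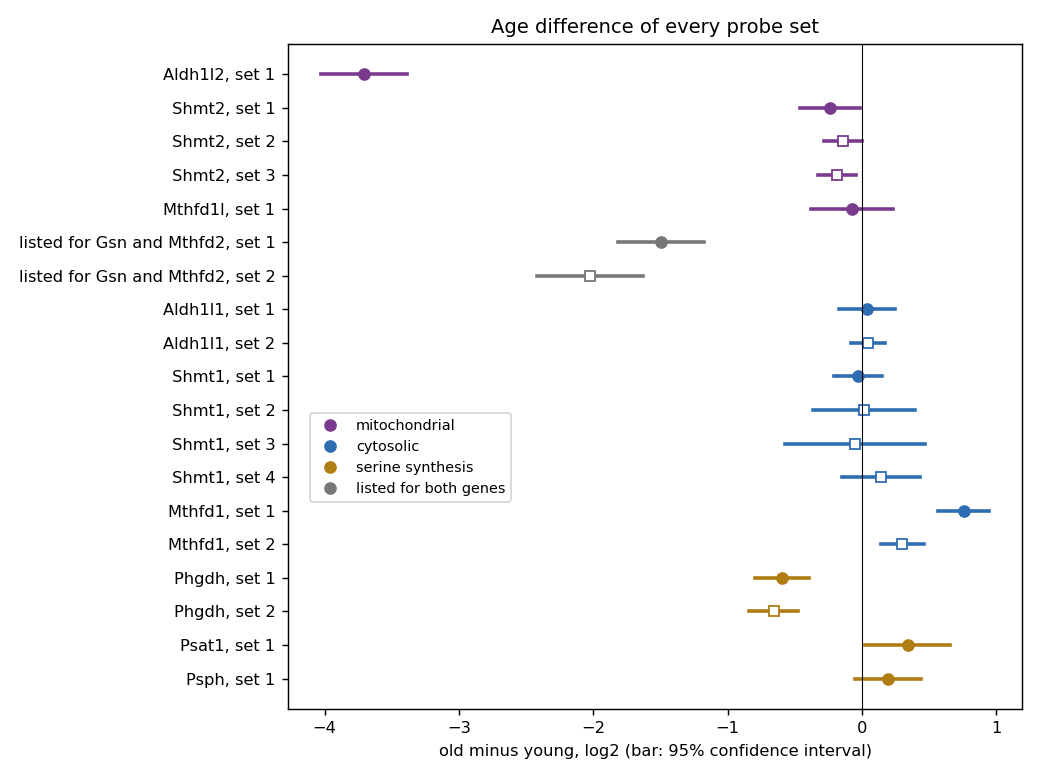
Difference between old and young (horizontal axis, log2) with 95% confidence interval for all 17 probe sets of the members and the 2 listed for both Gsn and Mthfd2; filled circles are the probe sets used as the gene's value, or the first of the shared ones. Aldh1l2 and the shared sets lie from -3.71 to -1.50, and the remaining ones between -0.66 and 0.76.

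A technical measure moved with age. Control probe sets of the array that match no transcript were split by their content of G and C bases. The mean log2 level of those with lower content overlapped between the ages, at 3.35 to 3.38 in young and 3.32 to 3.38 in old. The mean of the 11 with high content (15 to 25), here called the control level, was 5.85 in young mice (5.76 to 6.02). In old mice it was 5.34 (5.10 to 5.63), lower in all old arrays. With this control level as a covariate in limma none of the 8 tested members passed, and 2, Mthfd1 and Phgdh, had an unadjusted p under 0.05. Mthfd1 then differed by 0.55 (95% interval 0.20 to 0.90, adjusted p = 0.152) and Phgdh by -0.62 (95% interval -1.05 to -0.19, adjusted p = 0.187). The differences of Psat1 and Psph changed sign, to -0.11 and -0.13, and that of Aldh1l2 was -4.24. Since the control level did not overlap between the ages, its part and that of age cannot be told apart in this fit, in which 69 genes were called higher and 101 lower in place of 1688 and 1310.

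Markers of the sorted cell and of its neighbours were read in the same arrays. All 8 fibroblast genes were detected, with a mean log2 level of 11.37 to 11.49 in young and 11.19 to 11.31 in old mice. Of these genes 1 was called, Col3a1, which fell by 0.28 (adjusted p = 0.0077). The mean of 10 keratinocyte genes was 7.16 to 8.34 in young and 7.89 to 9.03 in old, with 3 of the 10 higher and 1 lower, and Krt14 rose by 1.65 (adjusted p = 0.0047). The 1 lower gene was Trp63, at -0.41 (adjusted p = 0.0237), a call lost without young replicate 1, 3 or 4 or old replicate 2 or 3 (adjusted p = 0.055 to 0.067), and its difference was 0.17 with its most variable probe set (adjusted p = 0.514). Of 3 measured adipocyte genes, Fabp4 rose by 3.02 (adjusted p = 0.007), while Adipoq and Lep were at the floor, and the mean over the 3 was 3.79 to 4.74 in young and 4.96 to 5.50 in old. Among 7 leukocyte genes Lyz2 rose by 1.08 (adjusted p = 0.0016) and Csf1r fell by 1.92 (adjusted p = 5.9e-06), and Ptprc, Cd3e and Adgre1 were at the floor. Of 5 endothelial genes 1 was called higher and 3 lay at the floor. Of 5 melanocyte genes 1 was called lower and all 5 lay at the floor. None of 5 muscle genes or 2 Schwann cell genes was called. Beside these marker counts, 9.87% of all genes were called higher and 7.66% lower. With the control level as a covariate Krt14, Fabp4, Lyz2 and Trp63 lost their call (limma adjusted p = 0.194 to 0.370), while Csf1r kept its call. The part of these cells in the members' differences was not tested.

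Genes with only a predicted or clone name were left out of the search for profiles like that of Aldh1l2. The 5 genes with the nearest profile were found by the root mean square distance between centred log2 levels over the 8 arrays. They were Cgref1 at 0.290, Rassf4 at 0.292, Creb3l3 at 0.326, Bcat1 at 0.376 and Slc6a2 at 0.622. The other members lay between 1.58 for Phgdh and 2.24 for Mthfd1. The distance is set mostly by the age difference, for which Aldh1l2 was chosen, so it is a description: a gene with little difference must lie far from Aldh1l2, and all 5 genes were high in every young and low in every old array.

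Bcat1, the cytosolic aminotransferase of branched-chain amino acids, read 8.29, 8.14, 8.70 and 8.94 in young and 5.29, 5.23, 5.44 and 5.49 in old mice. Creb3l3, a transcription factor held in the membrane of the endoplasmic reticulum, read 9.8, 9.79, 10 and 9.99 in young and 6.2, 6.07, 6.73 and 6.16 in old mice. Cgref1, a secreted protein with EF-hand motifs, read 9.47, 9.60, 9.98 and 9.83 in young and 6.79, 6.31, 6.55 and 6.29 in old mice. Cgref1 had the Aldh1l2 order among young mice, with replicate 3 highest and replicate 1 lowest, but not among old mice. Slc6a2, the noradrenaline transporter, had old values in a narrow band of 6.61 to 6.92 and young values of 9.11 to 9.35.

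**Figure D3:**
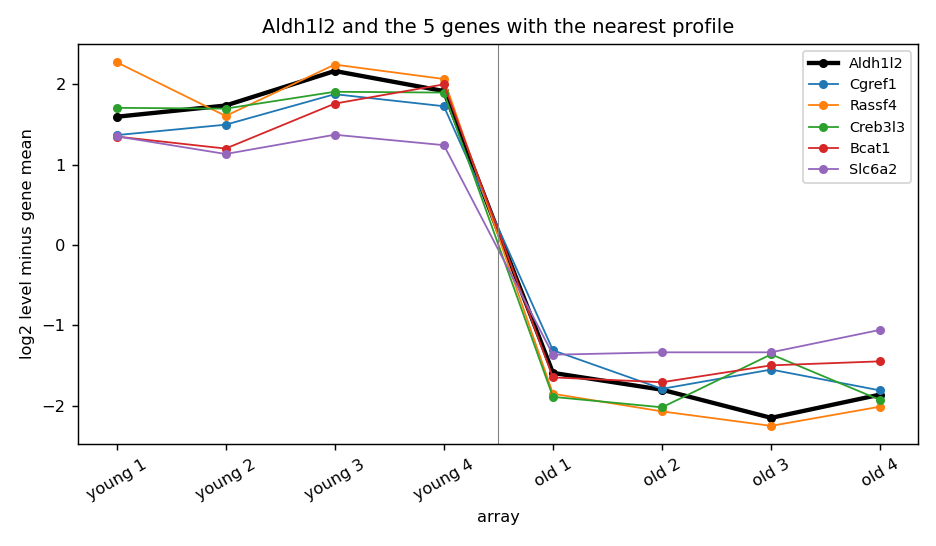
Log2 level minus the gene's mean over the 8 arrays (vertical axis) for Aldh1l2, thick line, and 5 near genes, in young and old arrays (horizontal axis). The 5 are the nearest once genes with only a predicted or clone name were left out. All 6 lines drop between young and old, with Rassf4 spanning most and Slc6a2 least.

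Genes next to these enzymes were followed in 8 lists, chosen, like the members, with earlier results of these arrays known. Over all genes 9.87% were called higher and 7.66% lower in old. Of 10 measured genes of folate reactions beside the members, 1 fell, none rose and 9 did not pass, with a median difference of -0.065. At an unadjusted p under 0.05 limma gave 3 lower and 0 higher, where 13.1% of all genes were lower and 16.6% higher. The 1 that fell was Mthfsd, named for a methenyltetrahydrofolate synthetase domain, at -0.36 ± 0.07 (SE, adjusted p = 0.0066). Tyms, which makes thymidylate with a folate carbon, differed by -0.27 (adjusted p = 0.0712) and was called without old replicate 4 (-0.33, adjusted p = 0.0401), with a second quantile normalization (adjusted p = 0.0353) and with array weights (adjusted p = 0.0157). With its probe sets averaged it was -0.047 (adjusted p = 0.618). Mthfd2l, a relative of Mthfd2, lay at the floor with -0.02 (adjusted p = 0.873). Gldc of the mitochondrial glycine cleavage system, also at the floor, differed by -0.16 (adjusted p = 0.165), and Mtfmt, which formylates the initiator tRNA of mitochondria, by -0.11 (adjusted p = 0.47).

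For folate uptake and retention and the entry of serine and related amino acids, 2 of 11 genes rose, 2 fell and 7 did not pass. The median was -0.11, and the called shares of all genes were 9.87% higher and 7.66% lower. At an unadjusted p under 0.05 limma gave 2 higher and 3 lower, beside 16.6% and 13.1% of all genes. Slc1a5, a sodium-coupled carrier of glutamine, serine and other neutral amino acids, rose from 8.70 ± 0.17 to 9.53 ± 0.14 (SD, n = 4 each), by 0.82 ± 0.10 (SE, adjusted p = 0.00048). The glycine transporter Slc6a9 fell by 0.54 ± 0.12 (SE, adjusted p = 0.0152). Of the sideroflexins, the mitochondrial carriers that include serine transporters, Sfxn2 fell by 0.42 (adjusted p = 0.0128) and Sfxn3 rose by 0.32 (adjusted p = 0.0253). The call of Sfxn3 was lost with each array centred on its median (adjusted p = 0.064) and without any 1 of the young arrays. The mitochondrial folate carrier Slc25a32 differed by -0.12 (adjusted p = 0.393). Sfxn1, Slc1a4 and Slc46a1 of this list had no value here, so entry of serine was only partly covered.

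The methionine cycle takes its methyl group from folate. In this cycle and the paths beside it, 2 of 14 genes rose, 2 fell and 10 did not pass. The median was 0.15, and the called shares of all genes were 9.87% higher and 7.66% lower. At an unadjusted p under 0.05 limma gave 4 higher and 2 lower, beside 16.6% and 13.1% of all genes. Mtr, the methionine synthase that draws on folate directly, rose by 0.32 ± 0.08 (SE, adjusted p = 0.0153), and Ahcy, which clears S-adenosylhomocysteine, rose by 0.32 ± 0.08 (SE, adjusted p = 0.0182). The call of Mtr was lost when probe sets were averaged (0.20, adjusted p = 0.058) or quantile normalized again, and that of Ahcy without young replicate 2 (adjusted p = 0.052). The spermidine synthase Srm fell by 0.78 ± 0.10 (SE, adjusted p = 0.00075) and the nicotinamide methyltransferase Nnmt by 0.69 ± 0.14 (SE, adjusted p = 0.0081).

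Purine synthesis uses the formyl groups that Mthfd1 supplies. At an unadjusted p under 0.05 limma gave 7 higher and 1 lower of 11 measured genes, beside 16.6% and 13.1% of all genes. After adjustment 4 rose, 1 fell and 6 did not pass, beside 9.87% higher and 7.66% lower of all genes, with a median of 0.27. Those that rose were Prps2, which makes the ribose phosphate donor, at 0.69 ± 0.10 (SE, adjusted p = 0.0016; 0.37 with its probe sets averaged), Adss of AMP synthesis at 0.57 ± 0.09 (SE, adjusted p = 0.002), Gmps of GMP synthesis at 0.55 ± 0.08 (SE, adjusted p = 0.0018) and Paics of the ring-building steps at 0.27 ± 0.06 (SE, adjusted p = 0.0117; 0.41 with its most variable probe set). Gart, whose transformylase takes a formyl group from folate, differed by -0.10 (adjusted p = 0.358). Impdh1, the dehydrogenase that opens the branch to GMP, fell from 7.79 ± 0.10 to 6.58 ± 0.16 (SD, n = 4 each), a difference of -1.22 ± 0.09 (SE, adjusted p = 3.2e-05).

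Of 12 genes that use serine outside folate, 1 rose, 1 fell and 10 did not pass, with a median of 0.03. The called shares of all genes were 9.87% higher and 7.66% lower. At an unadjusted p under 0.05 limma gave 1 higher and 2 lower, beside 16.6% and 13.1% of all genes. Sptlc1, a subunit of the enzyme that starts sphingolipid synthesis from serine, rose by 0.50 ± 0.11 (SE, adjusted p = 0.0112). Serinc5, a multipass membrane protein, fell by 0.51 ± 0.14 (SE, adjusted p = 0.0299), a call lost without young replicate 3 (adjusted p = 0.0721), old replicate 2 (adjusted p = 0.0813) or old replicate 3 (adjusted p = 0.0734). Ptdss1 and Ptdss2, which make phosphatidylserine, differed by -0.20 (adjusted p = 0.123) and -0.17 (adjusted p = 0.239).

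Since Aldh1l2 makes NADPH in mitochondria, other NADPH makers were listed, and 4 of 8 rose, 1 fell and 3 did not pass. The median was 0.22, and the called shares of all genes were 9.87% higher and 7.66% lower. At an unadjusted p under 0.05 limma gave 4 higher and 1 lower, beside 16.6% and 13.1% of all genes. The cytosolic malic enzyme Me1 rose by 0.94 ± 0.10 (SE, adjusted p = 0.00031). The mitochondrial transhydrogenase Nnt rose by 0.37 ± 0.10 (SE, adjusted p = 0.0266), a call lost without young replicate 2 (adjusted p = 0.0649), young replicate 4 (adjusted p = 0.0699), old replicate 3 (adjusted p = 0.057) or old replicate 4 (adjusted p = 0.0659), with a second quantile normalization (adjusted p = 0.0516) and with its probe sets averaged (adjusted p = 0.0542). The glutamate dehydrogenase Glud1 rose by 0.34 ± 0.07 (SE, adjusted p = 0.0069) as did Pgd of the pentose phosphate path, by 0.26 ± 0.08 (SE, adjusted p = 0.049), a call that held in 6 of 18 fits and, with 1 array left out, only without young replicate 2. Idh2, the mitochondrial isocitrate dehydrogenase, fell by 0.60 ± 0.08 (SE, adjusted p = 0.00072), or by 0.21 with its probe sets averaged (adjusted p = 0.0486), and its cytosolic counterpart Idh1 had a mean of 10.52 in both ages.

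Of 29 measured genes in the list of Atf4 and its known targets, 9 fell, none rose and 20 did not pass. The members, several of which Atf4 drives in many cell types, were left out of this list. Of the 8 tested members 1 rose, 1 fell and 6 did not pass. The median was -0.20, and the called shares of all genes were 7.66% lower and 9.87% higher. At an unadjusted p under 0.05 limma gave 13 lower and 0 higher, against 13.1% and 16.6% of all genes. Aldh18a1, which starts proline synthesis from glutamate, fell by 1.04 ± 0.10 (SE, adjusted p = 0.00012), and the glycyl-tRNA synthetase Gars by 0.71 ± 0.07 (SE, adjusted p = 0.00016). The mitochondrial phosphoenolpyruvate carboxykinase Pck2 fell by 0.70 ± 0.11 (SE, adjusted p = 0.0019). The asparagine synthetase Asns fell by 0.84 ± 0.19 (SE, adjusted p = 0.0122), with old values of 5.92, 5.83, 5.70 and 6.61 against 6.59, 6.78, 7.01 and 7.03 in young, so that only old replicate 4 reached the young range. The other 5 that fell were Eif4ebp1, Atf5, Xpot, Slc7a1 and Nupr1, with differences of -0.70 to -0.35. With probe sets averaged Eif4ebp1 was -0.44 and Xpot -0.27. The call of Slc7a1 was lost without any 1 of the young arrays or without old replicate 1, 2 or 3 (adjusted p = 0.061 to 0.105). Outside the naming rule and picked after its value was seen, Atf4 itself had levels of 11.29 to 11.40 in young and 11.39 to 11.52 in old mice, a difference of 0.10 ± 0.06 (SE, adjusted p = 0.31).

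The windows before Asns, Gars and Pck2 are shown because these called genes hold TGATGNAA, which none of the 10 windows of members held. In this list the motif was read only in the windows of Asns, Gars, Pck2 and Aldh18a1. How many of the other listed genes hold it, called or not, was not counted. A link of the motif to the falls was not tested. The window of Aldh18a1, which had the largest fall of the named genes in this list, held no TGATGNAA and 1 CACGTG. Capitals mark TGATGNAA or its reverse complement, 23, 30 and 103 bases before the RefSeq start on GRCm38.p6.
Asns, chr6:7693209-7693248, minus strand: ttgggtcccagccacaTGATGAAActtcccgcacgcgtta
Gars, chr6:55037955-55037994, plus strand: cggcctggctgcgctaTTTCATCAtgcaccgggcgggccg
Pck2, chr14:55540147-55540186, plus strand: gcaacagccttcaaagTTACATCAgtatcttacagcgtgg

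Of 9 measured proliferation genes none was called, with a median of 0.145, and at an unadjusted p under 0.05 limma gave 4 higher and none lower, beside 16.6% and 13.1% of all genes. Mki67 differed by 0.34 (adjusted p = 0.0843) and Mcm3 by 0.28 (adjusted p = 0.0852). Array weights brought 1 call in this list, and so did leaving out old replicate 3 or 4. Of the 23 called list genes that the naming rule picked, all 23 kept their sign with the control level as a covariate. Of these, 4 kept their call, namely Srm, Impdh1, Aldh18a1 and Gars. Named outside that rule, Paics, Pgd, Eif4ebp1, Atf5, Xpot, Slc7a1 and Nupr1 lost their call (limma adjusted p = 0.146 to 0.843). In the Atf4 list 2 genes were then called in place of 9.

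**Figure D4:**
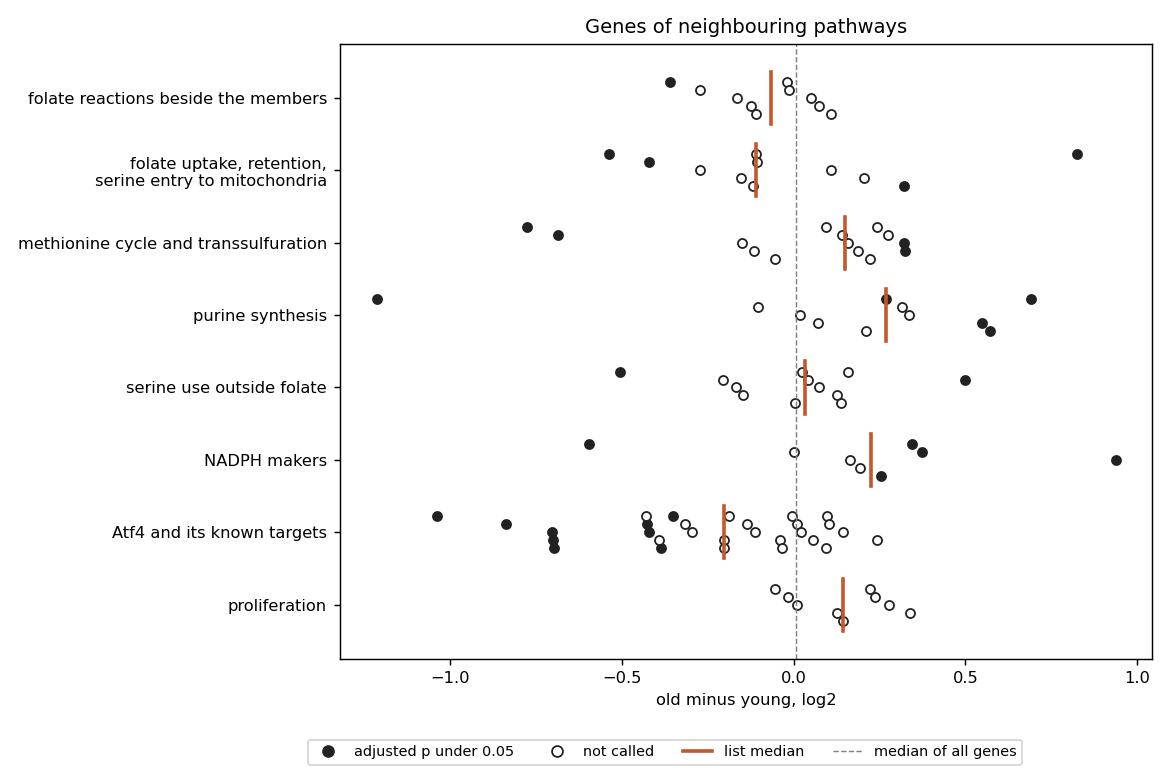
Difference between old and young (horizontal axis, log2) of each measured gene of the 8 lists, filled where the adjusted p was under 0.05; the bar is the list's median and the dashed line the median of all genes, 0.0075. The called genes of the Atf4 list all lie left of 0. Purine synthesis and NADPH makers have 4 called genes each to the right and 1 to the left. Of all genes 9.87% were called higher and 7.66% lower.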

How the data were processed

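The authors deposited log2 probe set values of 8 arrays, made with RMA and the R package affy per the submitters' processing notes, with no versions given. RMA corrects background, equalises array distributions and summarises probes, which compresses differences near the floor and the top. The table held 45141 probe sets with 2 decimals. GEO's platform annotation, which can be old, gave 28898 of them 1 symbol, 551 several and 15692 none, and 28689 matched RefSeq (GRCm38.p6) by gene ID. For the 7180 genes with over 1 probe set that of highest mean was used.

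The 2-sided limma test (version 3.58.1, R 4.3.3, lmFit with eBayes and no covariate) set 4 old against 4 young arrays. Benjamini-Hochberg adjustment ran across the 17097 genes with a threshold of 0.05, and again over all probe sets. The test was also run on simulated data with independent noise and no shift shared by an array. That run cannot speak to the shift of the control level seen here. Pairs had an exact permutation test in Python 3.11.15. The number of arrays limits precision. Named genes were the members, up to 4 called genes per list by size, genes beside a member's reaction and the 5 nearest profiles, predicted transcripts left out. Others were named after their values were seen: Atf4, Slc25a32, Paics, Gart, Ptdss1, Ptdss2, Pgd, Idh1, Eif4ebp1, Atf5, Xpot, Slc7a1, Nupr1, Mki67, Mcm3 and the marker genes. Members and lists were chosen with earlier results of these data known. Listed genes with no probe set of a single symbol were not analysed here.

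Alternatives were normalization, dim genes left out, the choice of probe set, the prior, array weights, control level as covariate, replicate block and each array left out. Specimen numbers were not taken as pairs, since no label ties them to collection days. Deviations from the age means correlated across genes at 0.285, 0.052, -0.044 and 0.224 for numbers 1 to 4. Between different numbers the correlations ran from -0.255 to 0.213. These values do not settle whether equal numbers share a day.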

Additional observations from a re-analysis of the deposited data

Results flagged for a closer look

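Among the named genes, 3 single arrays stood far from the other 3 of their age, of 76 groups of 4 arrays looked at, and chance alone marks about 1 in 20 groups. Shmt2 read 7.63 in young replicate 2 against 7.50 to 7.52 in the others. Glud1 read 10.13 in young replicate 4 against 10.03 to 10.04. Aldh18a1 read 8.16 in old replicate 1 against 7.76 to 7.79, still below all young arrays.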

How the results depend on the processing

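The 2 called members, Mthfd1 and Phgdh, kept direction and call under every alternative except the control level as a covariate, which left 0 members called by limma (2 at an unadjusted p under 0.05), 69 genes higher and 101 lower. Leaving out 1 array in turn gave 2 members called each time, 1215 to 1709 genes higher and 983 to 1218 lower. A second quantile normalization moved the share of calls that were higher from 56.3% to 45.2%, with 1415 higher and 1716 lower, and called 3 members, Shmt2 added. The difference of Aldh1l2 lay between -4.24 and -3.60 over all settings. The replicate block called 2 members, 1838 genes higher and 1268 lower, changed no call of a gene named by the rule, and gave each pair an exact sign-flip p of 0.125, the smallest 4 pairs allow. The change of Shmt2 relative to Shmt1 ran from -0.27 to -0.14 with 1 array left out.

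Apart from the marker Trp63, the differences that changed sign were of genes that were not called. With the covariate, Aldh1l1 became -0.0026, Mthfd1l 0.057, Psat1 -0.11, Psph -0.13 and Mtfmt 0.032. Array weights turned Mthfd1l to 0.0081, averaging probe sets turned Shmt1 to 0.019 and Mtfmt to 0.049, and the most variable probe set turned Mtfmt to 0.21. With 1 array left out, Aldh1l1 ran from -0.032 to 0.096, Mthfd1l from -0.16 to 0.043, Shmt1 from -0.089 to 0.024 and Mthfd2l from -0.045 to 0.012. The causes were not tested. Aldh1l1, Mthfd1l, Mthfd2l, Gldc and Mthfsd had no value once genes dimmer than the median gene were left out, and signal near the floor limits what could be seen of the first 4.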
